A study of Homo sapiens with 4 samples.

Results

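The genes described here encode the ATPases and the core subunits that different SWI/SNF chromatin remodelling complexes have in common. They were chosen by gene name: SMARCA2, SMARCA4, SMARCB1, SMARCC1, SMARCC2, SMARCD1, SMARCD2, SMARCD3, SMARCE1 and ACTL6A, which are 10 of the 56809 genes in the count table. Strand-specific poly(A) RNA libraries were made from an established human multiple myeloma line, NCI-H929, here passage 2 cells expressing the nuclease Cas9. In 2 libraries BCL7A had been targeted by a construct switched on with doxycycline (knockout, KO), and 2 libraries were controls. By the protocol, both kinds of cell were transduced, kept under puromycin for 3 days and then given 0.5 ug/ml doxycycline over 24 h. The protocol speaks of a control construct, while titles and genotype labels say wild type, so what the control cells carried is uncertain. No clone, batch or date is given. Nor is it stated that replicates are independent cultures: p-values here reflect library-to-library spread alone, and that spread may be technical.

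SWI/SNF complexes use the energy of ATP to slide or evict nucleosomes and so open DNA to other proteins. Each complex holds a single ATPase, either SMARCA4 (BRG1) or SMARCA2 (BRM). The SMARCC proteins form its scaffold, a SMARCD protein and SMARCE1 join early in assembly, SMARCB1 contacts the nucleosome, and ACTL6A is an actin-related protein bound to the ATPase. Paralogs of a set fill the same role in the complex. BCL7A, the gene targeted here, is an accessory subunit that is not among the 10.

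Total gene counts were 38671744 and 40799624 for KO and 17567202 and 20153596 for control, a difference in depth that coincides with the groups. BCL7A itself had 46 and 44 counts under KO and 830 and 1014 in controls, with a log2 fold change of -5.15 (SE 0.11) and an adjusted p of 3.51e-25. All 10 plasma cell markers examined were detected, with a summed level of 12049 to 12061 CPM (counts scaled to library size) under KO and 6782 to 6843 CPM in controls. Marker sums of other cell types were far lower: 33.2 to 35.6 against 126 to 134 CPM for 8 mature B cell genes (CD22 at 0 in the KO libraries), 14.7 to 15.1 against 25.8 to 26.6 CPM for 6 T or NK cell genes (CD3D at 0 in all), and 12.0 to 12.6 against 66.1 to 70.9 CPM for 5 epithelial genes (EPCAM at 0 in the KO libraries, KRT19 at 0 in all). They were 3.96 to 4.55 against 2.85 to 3.20 CPM for 6 myeloid genes (MPO at 0) and 3.50 to 3.55 against 5.74 to 6.58 CPM for 5 neuronal genes (ACTL6B and STMN2 at 0). The part of these marker differences and of depth in the results below was not tested, and in bulk RNA fewer cells of a type and less RNA per cell cannot be told apart.

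Because the results turn on paralogs, the first question was whether reads can tell them apart. Over all their GENCODE 29 transcripts, SMARCA2 and SMARCA4 shared no word of 31 bases, nor did any pair of SMARCD genes, and SMARCC1 and SMARCC2 shared 2 such words, neither of them in the coding sequences compared. Between genes that are not paralogs the largest number was 30, for SMARCA4 and SMARCB1. In the coding sequences the longest identical runs were 26 bases between SMARCA2 and SMARCA4 (74.5% of aligned bases identical), 23 bases between SMARCC1 and SMARCC2 (70.7%), 20 bases between SMARCD1 and SMARCD2 (71.5%), 18 bases between SMARCD1 and SMARCD3 (74.2%) and 20 bases between SMARCD2 and SMARCD3 (73.0%). The windows of 90 coding bases around the longest run of 2 pairs are shown 5′ to 3′ on the coding strand, with capitals for bases that differ from the paralog in the line beside it. They show how closely spaced the differences are even where the paralogs are most alike. The first pair lies in exon 7 of SMARCA2 (GRCh38, chr9:2056754-2056843, plus strand) and exon 8 of SMARCA4 (chr19:10991232-10991321, plus strand), and holds 14 differences.
SMARCA2: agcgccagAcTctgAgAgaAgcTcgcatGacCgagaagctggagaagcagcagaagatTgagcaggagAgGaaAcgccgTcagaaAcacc
SMARCA4: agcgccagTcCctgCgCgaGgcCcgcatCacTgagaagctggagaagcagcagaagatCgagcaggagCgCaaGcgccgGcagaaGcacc
The scaffold pair spans exons 8 and 9 of SMARCC1 (chr3:47710720-47714415, minus strand) and of SMARCC2 (chr12:56181747-56182004, minus strand), introns left out, and holds 20 differences.
SMARCC1: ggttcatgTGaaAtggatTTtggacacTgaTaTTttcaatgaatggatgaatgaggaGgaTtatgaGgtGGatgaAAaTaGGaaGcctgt
SMARCC2: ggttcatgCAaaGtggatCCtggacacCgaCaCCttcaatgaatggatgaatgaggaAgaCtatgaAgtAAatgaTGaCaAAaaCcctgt

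Overlap with other genes was a larger source of shared sequence than paralogy. SMARCB1 shared 17.1% of its 31-base words with DERL3, a plasma cell gene on the opposite strand whose exons overlap it over 2923 bases, and which was at 96.4 ± 0.0869 CPM under KO and 85.4 ± 0.682 CPM in controls (SD, n = 2). SMARCE1 shared 19.0% with AC073508.2, an overlapping transcript on its own strand with 1 to 12 counts in a library. SMARCC2 shared 5.46% with MYL6, which encodes a myosin light chain and overlaps it on the opposite strand over 514 exon bases (357 ± 3.25 against 258 ± 0.218 CPM). SMARCD3 shared 10.1% with the antisense gene AC021097.1, which had 7 to 26 counts in a library. SMARCD1 and SMARCD2 shared no such word with any other gene. How the counting treated strand is not given in the sources used here, which leaves the values of SMARCB1, SMARCC2 and SMARCD3 uncertain to that extent. AC073508.2 lies on the strand of SMARCE1, so no strand setting separates reads from the bases they share. Strand treatment also bears on smaller stretches of SMARCE1 (2.77%, shared with the antisense gene AC073508.3), ACTL6A (2.48%, shared with MRPL47) and SMARCA2 (1.90%, shared with AL359076.1).

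All 10 genes passed the filter on low counts, and all 10 passed an adjusted p of 0.05 in edgeR's quasi-likelihood test, 4 of them higher under KO and 6 lower. Of all 17885 tested genes 76.2% passed, 36.4% higher and 39.8% lower, and of the 9537 genes that averaged 10 CPM or more 85.8% passed, 54.2% higher and 31.7% lower. A share of called members near these is not a result about them. In none of the 10 did the CPM of the groups overlap, as for 87.4% of tested genes. The median of their absolute log2 fold changes was 0.49, equal at 2 decimals to that of the genes with at least 10 CPM (0.49) and below that of all tested genes (0.66). An absolute log2 fold change of 1 or more was reached by 1 of the 10, against 18.3% of genes with at least 10 CPM and 33.9% of all tested genes. That gene was SMARCD3, which averaged less than 10 CPM, so no member with at least 10 CPM reached it. The median signed log2 fold change was -0.24 over the 10, -0.06 over all tested genes and 0.19 over genes with at least 10 CPM. When scaling factors were taken from the latter genes alone, these became centred (median -0.0042), and 3 of the 10 were called higher and 7 lower. Over all genes the calls then split into 5071 higher and 8650 lower, against 6506 and 7123 in the main fit.

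**Figure D1:**
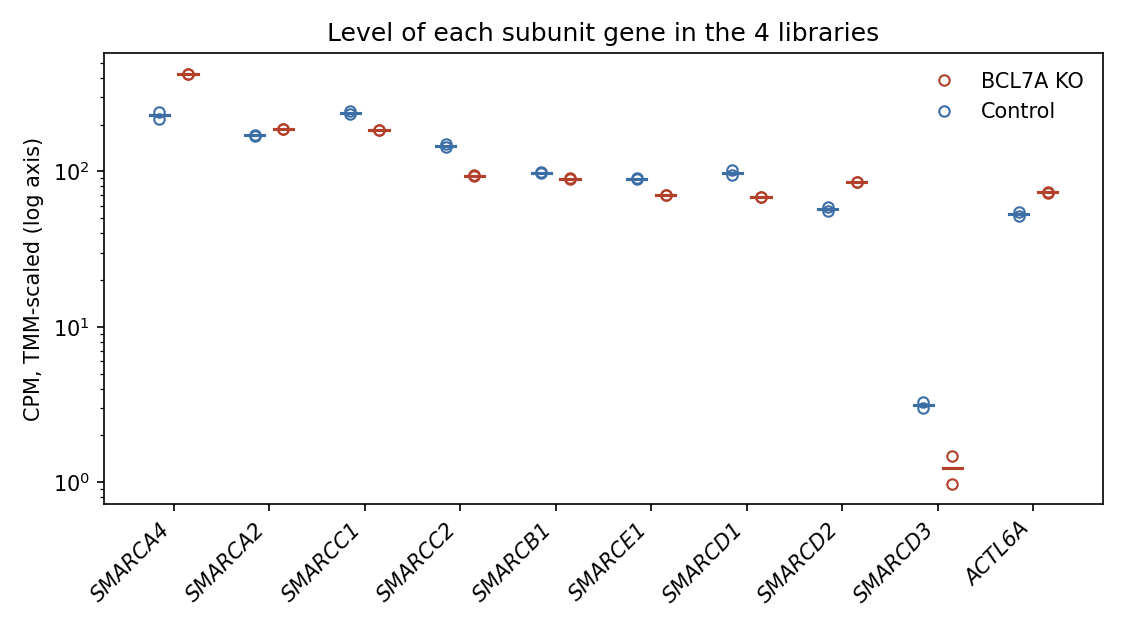
CPM of each gene in each of the 4 libraries on a log axis (open circles), with the mean of each group as a line; control libraries are blue and BCL7A KO libraries red. The KO libraries lie above the controls for SMARCA4, SMARCA2, SMARCD2 and ACTL6A and below them for the other 6 genes, and no gene's groups overlap.

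Of the ATPases, SMARCA4 (chromosome 19, 10960825 to 11079426, plus strand) was 426 and 425 CPM in the KO libraries and 242 and 216 CPM in the control libraries. Both KO libraries lay far above both controls, and the control libraries differed from each other more than the KO libraries did. The log2 fold change was 0.90 (SE 0.04, adjusted p = 1.00e-10), which is 1.86-fold, and 87.5% of genes with at least 10 CPM had a lower value. SMARCA2 (chromosome 9, 1980290 to 2193624, plus strand), the alternative ATPase, was 186 and 188 CPM against 170 and 172 CPM. Its libraries did not overlap between groups, but the difference was small (log2 fold change 0.13, SE 0.03, adjusted p = 3.35e-04). That value lay in the middle of the genes with at least 10 CPM, of which 46.1% were lower. Its direction held with relative log expression (RLE) factors (0.13, adjusted p = 3.71e-04) but not with every other scaling. The log2 fold change was -0.0021 (adjusted p = 0.952) with upper-quartile factors and -0.07 (adjusted p = 0.0474) with factors from genes of at least 10 CPM. A rise of SMARCA2 therefore rests on the scaling, whereas SMARCA4 ranged from 0.70 to 0.98 over the alternatives, past the threshold in each.

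The scaffold genes moved the other way. SMARCC1 (BAF155; chromosome 3, 47585272 to 47782106, minus strand) was 185 CPM in both KO libraries and 245 and 233 CPM in the controls. That is a log2 fold change of -0.37 (SE 0.03, adjusted p = 8.75e-12). SMARCC2 (BAF170; chromosome 12, 56162983 to 56189567, minus strand) was 93.0 and 94.5 CPM against 149 and 143 CPM. Its fall was larger (log2 fold change -0.64, SE 0.03, adjusted p = 7.95e-16), and only 14.7% of genes with at least 10 CPM had a lower value, against 22.0% for SMARCC1. Both fell under each alternative, SMARCC1 by 0.29 to 0.57 and SMARCC2 by 0.56 to 0.84 on the log2 scale.

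The 2 core genes without a paralog in the set were lower by different amounts. SMARCE1 (BAF57, which carries an HMG box; chromosome 17, 40624962 to 40648864, minus strand) was at 70.4 and 70.7 CPM under KO and at 90.3 and 89.1 CPM in controls. Libraries of a group lay close together, and the log2 fold change was -0.35 (SE 0.04, adjusted p = 6.62e-09). SMARCB1 (SNF5, a tumour suppressor; chromosome 22, 23786931 to 23838008, plus strand) was 90.3 and 89.2 CPM against 98.4 and 97.3 CPM. This difference of -0.12 (SE 0.04, adjusted p = 0.00356) was the smallest in absolute size among the 10. It was not called with DESeq2 (adjusted p = 0.0609), without a filter on low counts (-0.04, adjusted p = 0.417) or without KO replicate 2 (-0.10, adjusted p = 0.0902). DERL3, which shares sequence with SMARCB1 on the opposite strand, was higher under KO in the main fit (log2 fold change 0.17, SE 0.04). Its value under other scalings was not examined, and SMARCA2, with 0.13, changed direction under 2 of them. Whether reads from the overlap were counted for SMARCB1 is not known, and the part of the overlap in its value was not tested.

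Among the SMARCD genes, which encode the BAF60 subunits that link the complex to transcription factors, paralogs moved in opposite directions. SMARCD1 (BAF60A; chromosome 12, 50084972 to 50100712, plus strand) was 68.5 CPM in both KO libraries and 102 and 94.3 CPM in the controls. Its log2 fold change was -0.52 (SE 0.04, adjusted p = 5.52e-12). SMARCD2 (BAF60B; chromosome 17, 63832081 to 63843065, minus strand) was 84.9 and 85.6 CPM against 59.1 and 55.6 CPM, with a log2 fold change of 0.57 (SE 0.04, adjusted p = 1.25e-12). The ratio of these paralogs within a library does not depend on scaling: SMARCD1 had 1.73 and 1.70 times the counts of SMARCD2 in the control libraries and 0.807 and 0.800 times in the KO libraries. SMARCD3 (BAF60C, best known from heart and skeletal muscle; chromosome 7, 151238764 to 151277896, minus strand) was close to silent, with 52 and 36 counts in the KO and 58 and 73 in the control libraries. This is 1.48 and 0.974 CPM against 3.00 and 3.29 CPM, a log2 fold change of -1.36 (SE 0.26, adjusted p = 2.70e-05). Its KO libraries differed from each other 1.52-fold, and leaving out KO replicate 1 or 2 gave -1.67 or -1.08.

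ACTL6A (BAF53A; chromosome 3, 179562880 to 179588408, plus strand) was 73.6 and 72.9 CPM in the KO libraries and 51.6 and 54.8 CPM in the controls. The log2 fold change of 0.46 (SE 0.05, adjusted p = 3.53e-10) lay above that of 66.3% of genes with at least 10 CPM. ACTL6A is known to be highest in dividing cells, and its paralog ACTL6B takes its place in neurons. ACTL6B had 0 counts in all 4 libraries, which allows up to 0.0416 CPM for KO and 0.0723 CPM for control (3 counts over the group, counting error only).

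**Figure D2:**
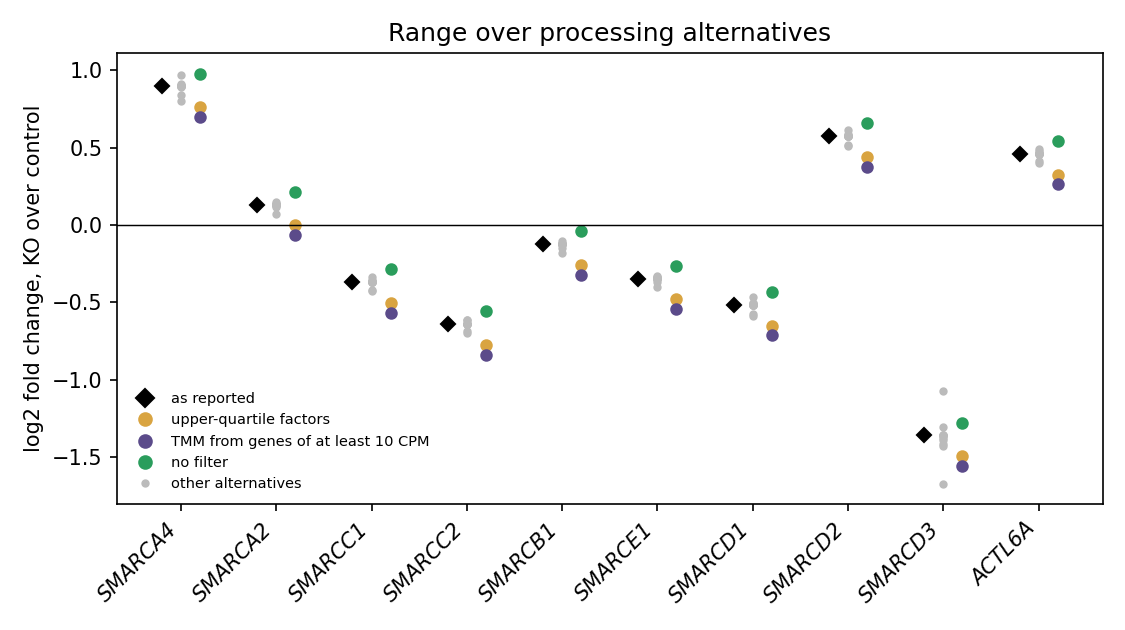
Log2 fold change of each gene (KO over control) in the fit reported (black diamonds), with upper-quartile factors, with factors from genes of at least 10 CPM, without a filter on low counts, and under the other alternatives (grey). SMARCA2 crosses 0 and SMARCB1 comes close to it, while the other 8 genes keep their direction throughout.

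Levels of different genes are compared only after division by transcript length, here the longest annotated transcript, in CPM per kilobase. In the control libraries SMARCA4 (39.5 ± 3.09, SD, n = 2) and SMARCC1 (37.5 ± 1.25) stood at the top and their libraries overlapped. SMARCC2 (34.2 ± 0.935) came next, then ACTL6A (28.0 ± 1.19) and SMARCD1 (26.8 ± 1.47), which overlapped each other, SMARCA2 (24.2 ± 0.247), SMARCD2 (21.1 ± 0.920) and SMARCB1 (18.8 ± 0.154). SMARCE1 (10.6 ± 0.101) and SMARCD3 (1.30 ± 0.0844) were lowest. The KO libraries had another order with no overlap between neighbours: SMARCA4 (73.5 ± 0.191), ACTL6A (38.6 ± 0.261), SMARCD2 (31.4 ± 0.173), SMARCC1 (29.02 ± 0.0311), SMARCA2 (26.5 ± 0.173), SMARCC2 (21.9 ± 0.263), SMARCD1 (18.7 ± 0.00784), SMARCB1 (17.2 ± 0.160), SMARCE1 (8.33 ± 0.0204) and SMARCD3 (0.508 ± 0.148). Such orders depend on the length used: SMARCD2 moved from place 7 to 3 by longest transcript and from 7 to 4 by consensus coding transcript, but only from 4 to 3 by the union of exons. SMARCC2 moved from place 3 to 6 with each of these lengths. For SMARCA2 the longest transcript (7061 bases in 4 exons) is not the longest in the consensus coding set (CCDS, 5867 bases in 34 exons), and with the latter SMARCA2 took the third place in the KO libraries (31.9 ± 0.208). With the union of all exons as length, SMARCC1 (31.3 ± 1.05) and not SMARCA4 (14.5 ± 1.13) was first in the control libraries.

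Shares within a paralog set do not depend on how libraries are scaled. SMARCA4 made up 73.6% and 73.4% of the ATPase signal per kilobase in the KO libraries and 63.5% and 60.5% in the controls, with SMARCA2 as the rest. With CCDS lengths, its mean share was 69.7% ± 0.193 against 57.5% ± 2.16 (SD, n = 2). SMARCC1 made up 57.1% and 56.7% of the scaffold signal against 52.4% and 52.2%, the narrowest shift of the main paralogs. SMARCD2 rose from 42.8% and 43.0% of the SMARCD signal to 61.8% and 62.2%, SMARCD1 went from 54.8% and 54.2% to 37.0% in both KO libraries, and SMARCD3 was 2.44% and 2.86% against 1.21% and 0.797%. No share overlapped between the groups. The exact two-sided permutation test gave p = 0.333 for each of these shares, the smallest value that 2 against 2 libraries allow, so the shifts of 11.5 percentage points (SMARCA4), 4.65 (SMARCC1) and 19.1 (SMARCD2) are given as descriptions.

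**Figure D3:**
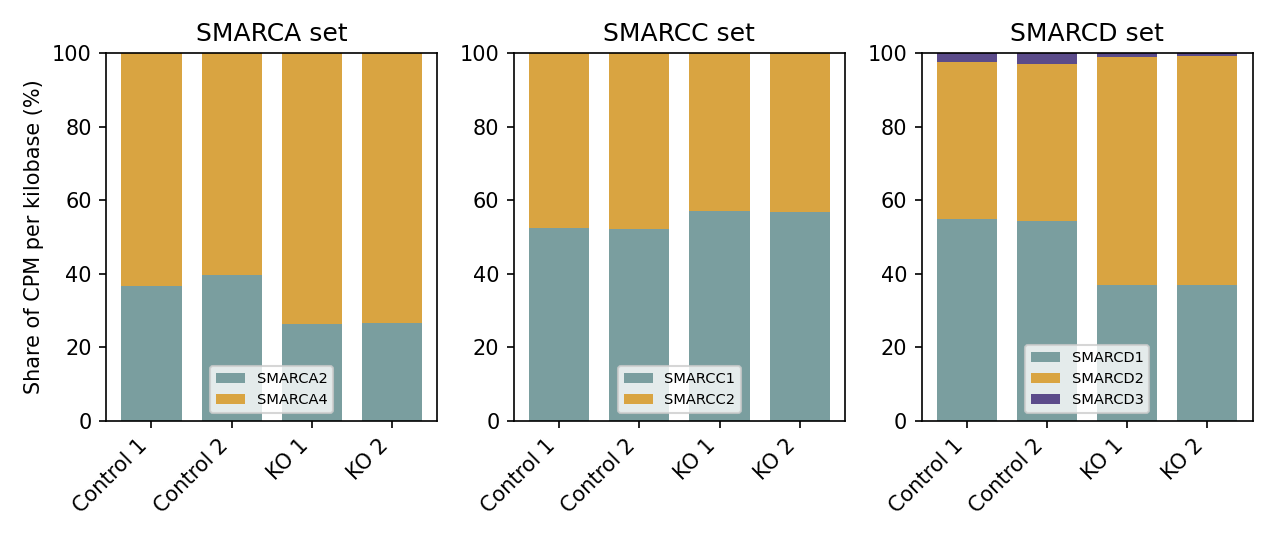
Share of each paralog in its set (percent of summed CPM per kilobase of longest transcript) in each library, for the ATPases (left), the scaffolds (middle) and the SMARCD genes (right). The SMARCD set changes most: SMARCD1 holds 54.8% and 54.2% in the control libraries and 37.0% in both KO libraries.

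The remaining SWI/SNF subunits, some of which set the complexes apart from each other, also moved in both directions. Of all tested genes 36.4% were higher under KO and 39.8% lower. Of 19 listed genes 18 were tested, 7 higher under KO and 8 lower, with a median log2 fold change of 0.04, and 3 did not pass. The split was 5 and 11 with factors from genes of at least 10 CPM, and 10 and 6 without a filter on low counts. The untested gene was ACTL6B. Besides BCL7A, PHF10, a subunit of the PBAF form, fell to 12.8 ± 0.422 from 59.2 ± 2.40 CPM (log2 fold change -2.21, SE 0.06). DPF3, a histone-reading subunit of the canonical BAF form, rose to 76.0 ± 0.485 from 29.3 ± 0.302 CPM (1.37, SE 0.05). ARID1A, the large DNA-binding subunit of canonical BAF, rose to 334 ± 6.97 from 225 ± 10.8 CPM (0.57, SE 0.03). PBRM1 (0.01), BRD7 (0.06) and BICRA (0.17) did not pass (adjusted p = 0.771, 0.156 and 0.0551), with 95% intervals of -0.05 to 0.08, -0.02 to 0.14 and 0.01 to 0.32.

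**Figure D4:**
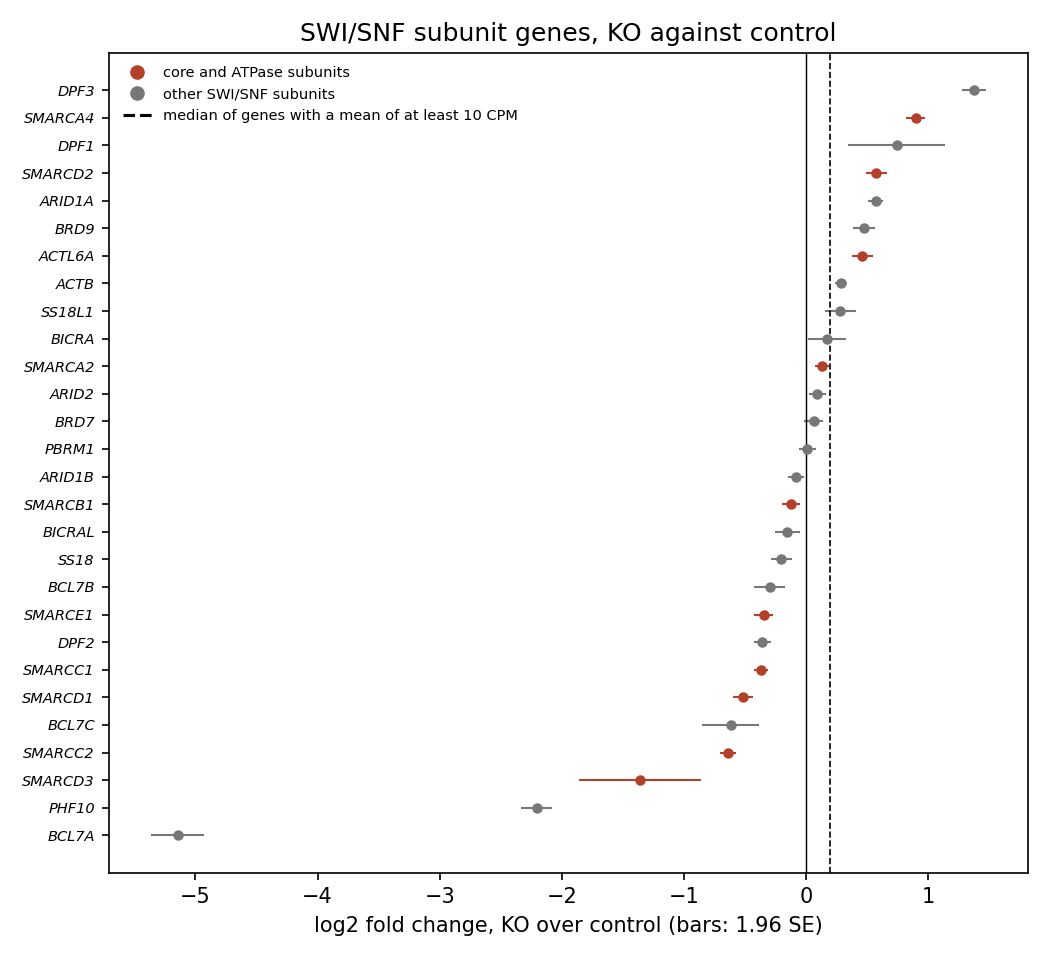
Log2 fold change (KO over control) with its 95% interval for the 10 core and ATPase genes (red) and the 18 tested other SWI/SNF subunit genes (grey); the dashed line is the median of genes averaging 10 CPM or more (0.19). BCL7A and PHF10 lie far to the left, DPF3 and SMARCA4 at the right end.

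Wider lists were examined beside the 10. Of all tested genes 36.4% were higher and 39.8% lower, and of genes with at least 10 CPM 54.2% and 31.7% (median 0.19). Of 19 ATPase genes of other remodellers, 10 were higher, 7 lower and 2 not called (median 0.11). With upper-quartile factors 9 were higher and 9 lower, and with factors from genes of at least 10 CPM 8 were higher and 10 lower. The 4 with the smallest p included CHD3, an ATPase of the NuRD complex (9.66 ± 1.34 against 42.3 ± 1.45 CPM), and CHD9 (106 ± 3.10 against 53.2 ± 1.82 CPM). The others were SMARCAD1 (107 ± 1.25 against 59.6 ± 1.77 CPM) and SMARCA5, an ATPase of ISWI complexes (252 ± 2.96 against 165 ± 1.55 CPM). ACTL6A also belongs to the INO80 and TIP60 complexes, so 32 genes for other subunits of these and of the related SRCAP complex were counted. INO80, SRCAP and EP400 are also among the 19 ATPase genes above. Of the 32 genes, 17 were higher, 8 lower and 7 not called (median 0.18). The share of higher genes and the median lay near those of genes with at least 10 CPM. With upper-quartile factors 13 of the 32 were higher and 13 lower. With factors from genes of at least 10 CPM 13 of the 32 were higher and 15 lower. Those with the smallest p were BRD8 (112 ± 0.589 against 47.4 ± 1.88 CPM), the AAA+ ATPase gene RUVBL2 (128 ± 0.213 against 59.0 ± 0.109 CPM), TRRAP (800 ± 15.7 against 496 ± 20.1 CPM) and YY1, which was lower (124 ± 3.93 against 205 ± 4.22 CPM).

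Each gene was also set beside the 10 tested protein-coding genes on either side. Around SMARCD2 (chr17:63550461-64542461) 16 of 20 neighbours were higher and 2 lower, with a median log2 fold change of 0.59, close to the 0.57 of SMARCD2. Around SMARCA4 (chr19:10566462-11384342) 14 of 20 were higher and 1 lower, with a median of 0.51 against 0.90 for SMARCA4. With 20 genes on either side of SMARCA4, 24 of 40 were higher and 7 lower, with a median of 0.40. The median was 0.31 around ACTL6A (12 higher and 5 lower of 20). Neighbours were tested protein-coding genes of any level. Of all tested genes 36.4% were higher and 39.8% lower (median -0.06). These shares were 54.2% and 31.7% (median 0.19) among genes with at least 10 CPM. With factors from the latter genes, the medians were 0.39 around SMARCD2, 0.31 around SMARCA4 and 0.11 around ACTL6A, and -0.57 around SMARCD3 and -0.49 around SMARCE1. In the main fit the median was -0.38 around SMARCD3 (6 higher and 12 lower) and -0.29 around SMARCE1 (6 higher and 11 lower). With 20 genes on either side of SMARCE1 it was -0.01. SMARCC1, SMARCC2 and SMARCD1 fell by 0.37, 0.64 and 0.52 on the log2 scale where the medians of their neighbours were 0.15, -0.06 and 0.05. With factors from genes of at least 10 CPM the medians around SMARCC1, SMARCC2 and SMARCD1 were -0.043, -0.26 and -0.15. Around SMARCA2 7 of 17 neighbours were higher and 6 lower (median -0.02), and around SMARCB1 7 of 20 were higher and 9 lower (median 0.0021, and 0.15 with 20 genes on either side), so medians near 0 there stand for genes that moved both ways.

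**Figure D5:**
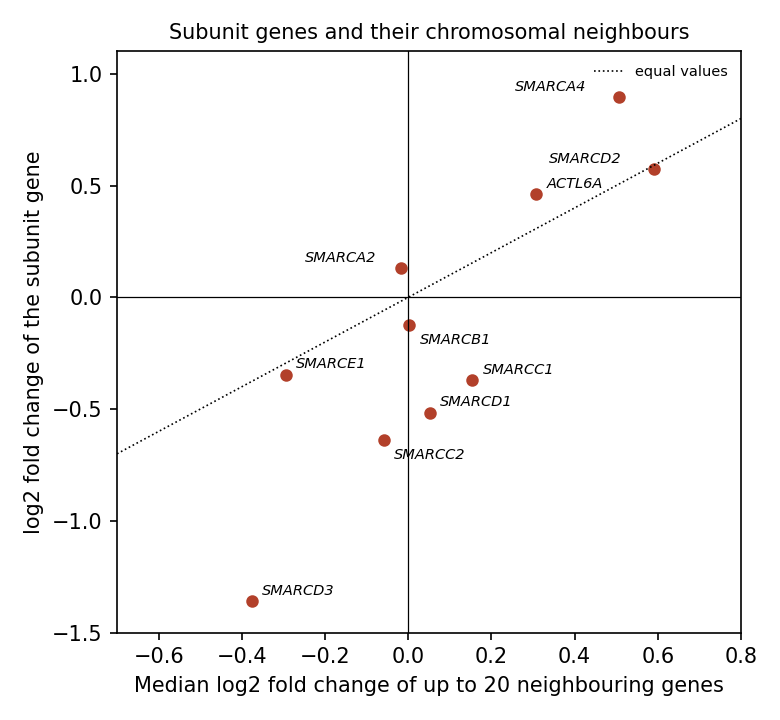
Log2 fold change of each of the 10 genes (vertical) against the median of up to 20 neighbouring tested protein-coding genes (horizontal), with a dotted line of equal values. SMARCD2 lies on the line, SMARCA4 and ACTL6A above it on the same side of 0, and SMARCC1, SMARCC2 and SMARCD1 well below it.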

How the data were processed

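Gene-level estimated counts were deposited by the authors in 1 table. The submitters' processing notes name Salmon 0.12 and GRCh38. Annotation and strand setting: not given in the sources used here. All values were whole numbers and were used unrounded. The 92 rows of ERCC spike-ins were left out. Each of the 10 genes matched 1 row by name. Coordinates and transcripts are from GENCODE 29 (GRCh38).

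After filterByExpr, 17885 genes were tested with TMM factors in edgeR 4.0.16 (glmQLFit with robust=TRUE, glmQLFTest, KO over control), with Benjamini-Hochberg adjustment over all of them and a threshold of 0.05. The SE is the absolute log2 fold change over the square root of F. CPM use the TMM factors. "Rose" and "fell" describe KO relative to control. Alternatives used DESeq2 1.42.0, limma 3.58.1, other factors, filters and sample sets. Scripts were tested on simulated data. Replicate libraries were not duplicates: their chi-square per degree of freedom was 1.77 in KO and 2.37 in control.

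The 10 genes and the lists were chosen with earlier results of these data known. Named genes are the 10, BCL7A, up to 4 of each other list by smallest p, listed genes at 0 counts, and, chosen after their values were seen, those not called among the other SWI/SNF subunits and genes sharing sequence with the 10. One marker list and the sequence window of one pair of paralogs are not reported here.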

Additional observations from a re-analysis of the deposited data

How the results depend on the processing

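Over 14 alternatives, 8 of the 10 genes kept their direction and their call. SMARCA2 turned to -0.0021 with upper-quartile factors and to -0.066 with factors from genes of at least 10 CPM, and SMARCB1 lost its call in 3 (without a filter, with DESeq2 and without KO replicate 2). Scaling moved the median of all tested genes from -0.06 to -0.19 with upper-quartile factors and to -0.25 with factors from genes of at least 10 CPM. The count of lower genes among other subunits of ACTL6A-containing complexes, 8 in the main fit, was 13 and 15 under these factors, and 5 to 8 with a library left out (5 without KO replicate 2 and without control replicate 1). The median of neighbours turned to -0.13 and -0.20 around SMARCB1 and to -0.082 and -0.15 around SMARCD1 with the same 2 factors, to -0.043 around SMARCC1 with the second, and to -0.15 around SMARCD1 with 20 genes per side. The shift in share of SMARCC1 was 4.17 and 4.31 percentage points, and that of SMARCD3 -1.08 and -1.20, with union exon length and with no length. Only a replicate number is shared between groups. The replicate block gave 4 genes higher and 6 lower among the 10, and 6365 higher and 6922 lower over all genes. Same-numbered deviations correlated at -0.198, and with the numbers crossed (added after the data were seen, as was CCDS length) the block gave 4 and 6 among the 10, and 6416 and 6943 overall. SMARCD3, with 36 to 73 counts in a library, is the gene whose value is least precise.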

Other observations

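Sums over the roles were added after the values were seen and are descriptions. Per kilobase of longest transcript, the ATPase genes together were 99.99 and 99.97 CPM in the KO libraries and 65.7 and 61.7 CPM in the control libraries. The scaffold genes together were 50.8 and 51.2 CPM against 73.3 and 70.2 CPM. By this length and by the union of exons, the order of these roles was reversed between the groups. With CCDS lengths the order was reversed too when the sums were compared within each library, though their ranges overlapped in the controls. Control libraries 1 and 2 had 70.6 and 66.7 CPM for the ATPase genes and 73.3 and 70.2 CPM for the scaffold genes. In the KO libraries the ATPase genes had 105 CPM in both and the scaffold genes 50.8 and 51.2 CPM. Without division by length the order was not reversed. The ATPase genes then summed to 613 ± 0.115 against 400 ± 16.2 CPM and the scaffold genes to 279 ± 1.32 against 385 ± 12.0 CPM (SD, n = 2). The SMARCD genes together were 50.6 CPM in both KO libraries and 50.9 and 47.6 CPM in the controls. By this length, their sum under KO lay within the spread of the control libraries. By the union of exons it lay above both controls (36.36 and 36.43 against 36.25 and 33.87 CPM). Such sums also depend on how libraries are scaled, and their values with other scaling factors were not examined. Counts of SMARCA4 were 2.31 and 2.29 times those of SMARCC1 in the KO libraries and 0.987 and 0.926 times in the control libraries, a within-library ratio that no scaling changes (exact two-sided permutation p = 0.333, the smallest possible with 2 against 2). Protein levels and complex assembly were not measured.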
